A study of Homo sapiens with 29 samples.

Results

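DNA replication genes code for the proteins that license origins, unwind and copy DNA, and supply the nucleotides for it. The 35 genes described here were taken by name as a fixed list, in 7 roles: the MCM2-7 helicase (6 genes), helicase activators (6), licensing factors (5), the sliding clamp and its loader (5), polymerases and primase (7), Okazaki fragment maturation (2) and nucleotide supply (4). No measured value entered the rule that chose them, but earlier results of these data were known when the list was made. All 35 were found among 28266 genes in the count table, and all 35 were among the 13136 genes that passed a filter on low counts. The question was how their messenger RNAs differed between growing fibroblasts, fibroblasts driven into senescence by oncogenic RAS, and senescent fibroblasts in which SMARCA4 was knocked down.

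The cells were IMR90 ER:RAS, an established strain of human lung fibroblasts infected with a retrovirus coding for oncogenic RAS fused to the estrogen receptor (ER). By the labels every group, controls included, is of this line. DMSO_siNT cells received the solvent DMSO and non-targeting siRNA (siNT) and kept growing. 4OHT_siNT cells received 4-hydroxytamoxifen (4OHT), which activates the fusion, and siNT. 4OHT_siSMARCA4 cells received 4OHT and siRNA against SMARCA4, the ATPase of the SWI/SNF chromatin remodelling complex. Cells were transfected the day before 4OHT and RNA was taken on day 7, with 2 siRNAs, numbered 2 and 4, in each arm. Each group had 6 libraries of polyadenylated RNA, with 9657309 to 18039313 counts per library. A library is named here by its group, its siRNA number and its set, as in DMSO_siNT 4-2V, and the meaning of V and VM in the set names is not stated. Nothing in the labels says that libraries came from separate cultures, so p-values measure the spread between these libraries.

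Dividing cells copy their DNA once per cycle. In G1, the origin recognition complex, CDC6 and CDT1 load the MCM2-7 ring onto origins, and at the start of S phase CDC45, the GINS complex and MCM10 turn the ring into a working helicase. Primase and polymerase alpha then start each strand, polymerases delta and epsilon extend it on the PCNA clamp, and FEN1 and LIG1 join the lagging-strand pieces. Many of these genes are known targets of E2F transcription factors, which the RB protein holds back in arrested cells.

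Some facts of the libraries bear on every result. SMARCA4, the gene targeted by siRNA, read 275 to 330 CPM (read counts scaled to a common library size) in 4OHT_siNT and 70.4 to 141 in 4OHT_siSMARCA4, so the groups did not overlap (log2 fold change −1.61 ± 0.14 (SE), adjusted p = 1.3e-06, edgeR). All 10 fibroblast markers checked were above 1 CPM in each group. The 4 epithelial markers summed to 34.1 to 52.9 CPM in DMSO_siNT, nearly all of it KRT19 (42.1 ± 7.3 (SD, n = 6)), against at most 2.01 CPM in 4OHT_siNT, while the 4 leukocyte markers summed to 45.0 to 74.9 CPM over all groups, most of it CD68. DMSO_siNT 4-2V stood apart. It held 29.5 CPM of ESR1, the estrogen receptor gene whose sequence the fusion carries, against 1034 to 1316 CPM in the other 5 growing libraries. Its HRAS level was 436 CPM against 2165 to 2852. Its label gives the same ER:RAS line, so these levels go against the label and this library may lack the transgene, which was not tested. It was also the shallowest library, and the main results are given with and without it. A further library matched no sample title. Its name in the count table gives siRNA 2 against SMARCA4 and a VM set, and it is called the unlabelled library. It was used as a replicate of 4OHT_siSMARCA4 with siRNA 2, and was left out of the contrasts by set letter.

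Promoter letters are shown first, because the genes were taken as a functional group and E2F letters are what the group is best known to share. RefSeq windows (GRCh38.p14) were given for 32 of the 35 genes, all but MCM4, MCM5 and GINS4. In the 250 bases before the start, 16 of 32 windows (50%) held at least 1 of 4 E2F spellings on either strand (TTCCCGC, its variant with TTGGCGC, with TTCGCGC or with TTGCCGC), against 15% of 15108 genes with a MANE Select transcript (the annotated default transcript). The CCAAT letters, the core of the site bound by NF-Y, stood in 18 of 32 windows (56.2%) against 34.9%. TTTGAA, the core letters of the CHR element of late cell cycle genes, stood in 1 of 32 (3.12%) against 10.2%. Spellings of 1 motif can overlap each other. The 6 windows below are those that end at the start of the MANE Select transcript and hold no annotated exon, whatever their gene's values. Capitals mark the E2F and CCAAT letters, on either strand.
MCM6: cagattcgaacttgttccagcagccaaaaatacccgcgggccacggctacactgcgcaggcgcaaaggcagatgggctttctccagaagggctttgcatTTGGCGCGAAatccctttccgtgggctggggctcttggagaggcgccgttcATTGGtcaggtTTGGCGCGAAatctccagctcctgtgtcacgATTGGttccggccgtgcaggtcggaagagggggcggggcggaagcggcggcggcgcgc
MCM10: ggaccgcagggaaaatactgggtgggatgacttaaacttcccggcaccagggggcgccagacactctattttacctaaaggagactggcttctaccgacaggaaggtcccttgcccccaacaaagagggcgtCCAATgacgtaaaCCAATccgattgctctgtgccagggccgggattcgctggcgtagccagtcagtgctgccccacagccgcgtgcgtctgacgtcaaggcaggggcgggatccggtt
GINS2: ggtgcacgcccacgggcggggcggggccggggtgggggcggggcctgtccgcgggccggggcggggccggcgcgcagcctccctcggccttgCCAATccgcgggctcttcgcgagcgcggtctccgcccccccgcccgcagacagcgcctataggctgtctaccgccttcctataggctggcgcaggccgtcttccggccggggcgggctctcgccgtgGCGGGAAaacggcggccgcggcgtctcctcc
CDC6: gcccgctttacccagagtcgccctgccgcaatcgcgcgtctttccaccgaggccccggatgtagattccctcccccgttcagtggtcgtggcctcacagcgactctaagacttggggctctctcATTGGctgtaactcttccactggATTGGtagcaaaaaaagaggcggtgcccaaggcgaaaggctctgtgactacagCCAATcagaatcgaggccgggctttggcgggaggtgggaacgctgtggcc
CDT1: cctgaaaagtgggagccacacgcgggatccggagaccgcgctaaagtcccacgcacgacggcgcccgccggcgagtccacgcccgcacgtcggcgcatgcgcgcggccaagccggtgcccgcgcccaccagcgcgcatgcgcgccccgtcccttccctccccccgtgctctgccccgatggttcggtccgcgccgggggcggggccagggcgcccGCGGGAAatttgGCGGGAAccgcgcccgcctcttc
PCNA: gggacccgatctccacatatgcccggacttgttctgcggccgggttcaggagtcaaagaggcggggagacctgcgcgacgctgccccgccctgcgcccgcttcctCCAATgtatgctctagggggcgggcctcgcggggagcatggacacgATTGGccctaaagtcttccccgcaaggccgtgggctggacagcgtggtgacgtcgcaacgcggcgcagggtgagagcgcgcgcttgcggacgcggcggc
The MCM6 window is chr2:135876444-135876693 (minus strand). The MCM10 window is chr10:13161308-13161557 (plus strand). The GINS2 window is chr16:85688955-85689204 (minus strand). The CDC6 window is chr17:40287629-40287878 (plus strand). The CDT1 window is chr16:88803539-88803788 (plus strand). The PCNA window is chr20:5119959-5120208 (minus strand). MCM6 held 4 matches to E2F letters and 2 to CCAAT, CDT1 2 and none, GINS2 1 and 1, while MCM10, CDC6 and PCNA held no E2F spelling and 2, 3 and 2 CCAAT. Matches are a description of letters in these windows. Genes with and without E2F letters covered the same range of change in senescence: the median log2 fold change was −1.82 over the 16 with them (−5.12 to −0.56) and −1.73 over the 16 without (−5.11 to −0.23).

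In growing cells the 35 genes together took 912 to 1212 CPM, with a mean of 1066 ± 112 (SD, n = 6). The mean level of a gene ran from 3.28 CPM (PRIM1) to 136 CPM (PCNA). Per kilobase of transcript, PCNA was highest at 106 CPM per kb, then TYMS at 41.2, RRM1 at 32.0, TK1 at 29.8 and MCM7 at 29.5, and ORC1 was lowest at 1.21. In senescent 4OHT_siNT cells the sum was 361 to 398 CPM and in 4OHT_siSMARCA4 cells 357 to 404 CPM. Both senescent groups lay below every growing library and overlapped each other. In bulk RNA, fewer cells in S phase and less RNA per cell cannot be told apart.

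**Figure D1:**
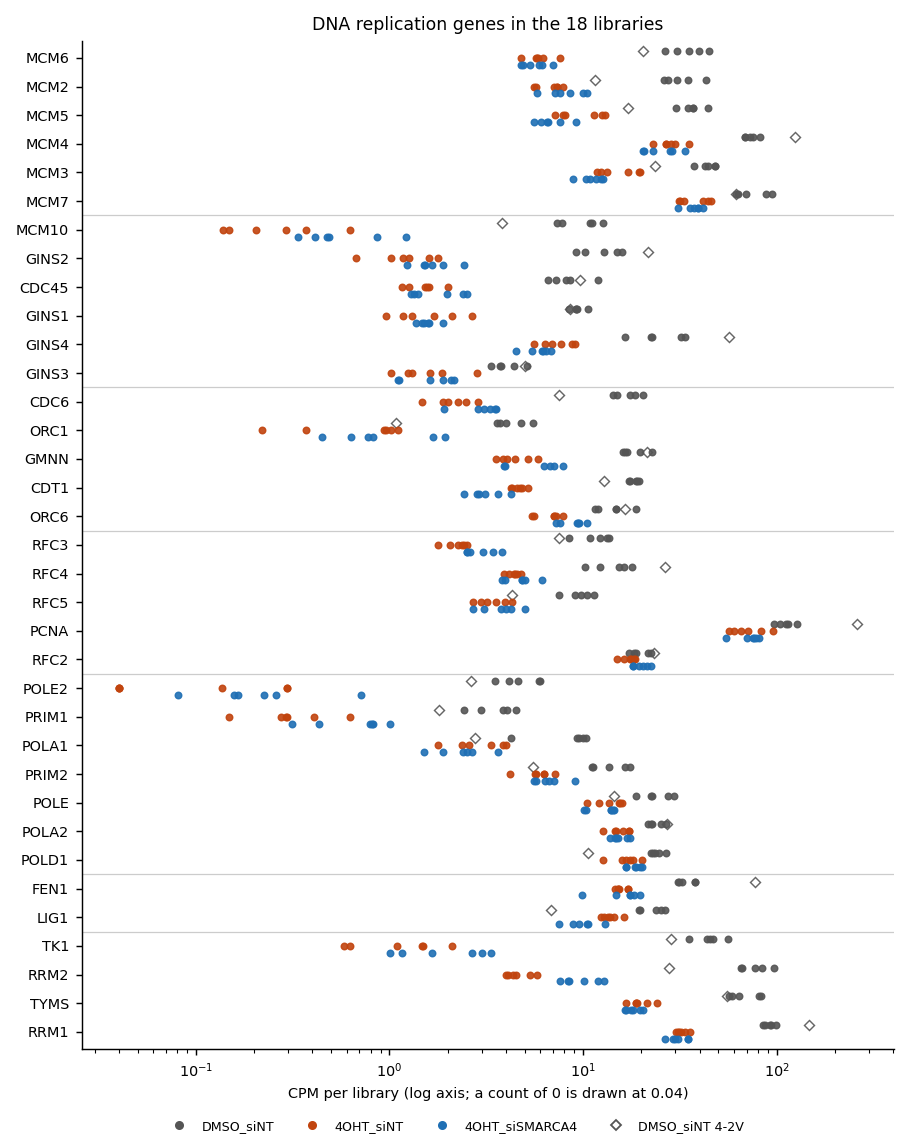
CPM (log axis) of the 35 DNA replication genes in each of the 18 libraries, grouped by role between grey lines and ordered within a role by the change in senescence; points are libraries, coloured by group, and open diamonds are DMSO_siNT 4-2V. The senescent groups lie to the left of the growing libraries for most genes, and TK1, POLE2 and MCM10 show the widest gaps.

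Senescent cells had less of nearly every DNA replication mRNA. Of the 35 genes, 33 fell in 4OHT_siNT against DMSO_siNT, none rose, and all 35 had a negative log2 fold change, while 28.9% of all genes tested were called lower (edgeR quasi-likelihood test, adjusted p under 0.05). The median log2 fold change was −1.75, with a range of −5.12 to −0.23, against a median of −0.05 over all genes tested. The level left in 4OHT_siNT ran from 2.72% of the growing mean (POLE2) to 85.2% (RFC2), with a median of 29.8%. Under 10% was left of 5 genes (POLE2, TK1, MCM10, RRM2 and GINS2) and over 50% of 7. For 28 genes every 4OHT_siNT library was below every DMSO_siNT library. Without DMSO_siNT 4-2V, 34 genes were called lower, where 30.3% of all genes were. In that set of libraries 34 genes had no overlap, and the exception in both counts was RFC2. The share of all genes with no overlap was not counted, so the separations describe the 35 genes only. Over the 35 genes, log2 CPM per kb in growing cells against log2 fold change gave Pearson r = 0.18 and Spearman rho = 0.19. The growing level is also the denominator of that fold change, and the genes share the same libraries. These values therefore cannot show how level and fall were related.

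The MCM2-7 genes code for the 6 subunits of the replicative helicase ring, and all 6 fell, by a median of −1.64 on the log2 scale. MCM6 had the largest fall of the ring. It read 20.4, 32.9 and 44.6 CPM (lowest, median, highest library) in DMSO_siNT, 4.77, 5.81 and 7.61 in 4OHT_siNT and 4.78, 5.61 and 7.03 in 4OHT_siSMARCA4. The growing libraries stood clear of both senescent groups, which covered the same range (4OHT_siNT against DMSO_siNT −2.45 ± 0.17, adjusted p = 6.0e-10). MCM7, which also hosts a microRNA cluster in its introns, had the smallest. Its CPM were 61.3, 66.3 and 94.3 in growing, 31.3, 37.4 and 45.6 in senescent and 30.8, 38.2 and 41.5 in knockdown cells. Again no senescent library reached the growing range, but 52.1% of the growing level was left (−0.94 ± 0.13, adjusted p = 8.9e-06). MCM2, MCM3, MCM4 and MCM5 lay between them, at −2.09 to −1.38. The subunits, which work in equal numbers in the ring, thus kept different shares of their growing mRNA level, from 18.3% to 52.1%.

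Helicase activators join the loaded ring at the start of S phase, and all 6 fell, by a median of −2.49. MCM10, needed to start unwinding, read 3.82, 9.31 and 12.7 CPM in DMSO_siNT and 0.138, 0.248 and 0.62 in 4OHT_siNT, the latter from 2 to 8 reads per library. In 4OHT_siSMARCA4 it read 0.337, 0.481 and 1.21. Only 3.32% of the growing level was left in 4OHT_siNT (−4.90 ± 0.38, adjusted p = 2.7e-09). GINS3, a GINS subunit, had the smallest fall of the role. It read 3.36, 4.10 and 5.10 CPM in growing cells, 1.02, 1.47 and 2.82 in senescent cells and 1.10, 1.76 and 2.15 with knockdown, so its groups were close but did not overlap with the growing one (−1.35 ± 0.24, adjusted p = 9.2e-05). GINS2 kept 8.83%, GINS1 17.9%, CDC45 17.5% and GINS4 24.1% of the growing level. DMSO_siNT 4-2V was the highest growing library for GINS2 (21.8 CPM) and GINS4 (56.7 CPM), and without it they kept 9.89% and 29.1%. The growing VM libraries read lower than the growing V libraries for both, at 9.14 to 12.8 CPM for GINS2 and 16.4 to 22.6 CPM for GINS4. All 4OHT_siNT libraries were VM, so these shares depend on which growing libraries are used. The 4 GINS subunits, partners in a single complex, ran from −3.48 (GINS2) to −1.35 (GINS3).

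Licensing factors load the ring in G1, and geminin (GMNN) blocks reloading by binding CDT1. All 5 fell, by a median of −2.07. CDC6, the loader ATPase, had the largest fall: it read 7.53, 16.2 and 20.4 CPM in DMSO_siNT, 1.48, 2.13 and 2.87 in 4OHT_siNT and 1.90, 3.19 and 3.55 in 4OHT_siSMARCA4. Every growing library was above every senescent library (−2.84 ± 0.22, adjusted p = 3.0e-09). ORC6, a small subunit of the origin recognition complex, had the smallest fall. It read 11.6, 14.8 and 18.8 CPM in growing cells, 5.47, 7.06 and 7.83 in senescent cells and 7.26, 9.39 and 10.5 with knockdown, again with the growing libraries apart (−1.13 ± 0.14, adjusted p = 1.8e-06). CDT1 read 12.8, 18.2 and 19.5 CPM in DMSO_siNT against 4.23, 4.66 and 5.19 in 4OHT_siNT, where 26.6% was left (−1.91 ± 0.14, adjusted p = 8.5e-10). Its inhibitor GMNN kept 23.8%. The pair thus fell by like amounts, −1.91 and −2.07, and the difference between them was not tested. ORC1 overlapped between the groups because of DMSO_siNT 4-2V, at 1.08 CPM against 3.58 CPM in the next growing library (−2.29 ± 0.41, adjusted p = 0.00011, and −2.46 without that library).

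PCNA is the ring that tethers polymerases to DNA, and the RFC proteins open it. Of the 5 genes, 4 fell, with a median of −1.35 over the role. RFC3 had the largest fall, from 7.53, 11.5 and 13.7 CPM in DMSO_siNT to 1.77, 2.32 and 2.50 in 4OHT_siNT, with 2.50, 2.83 and 3.81 in 4OHT_siSMARCA4. The growing libraries were apart from both senescent groups (4OHT_siNT against DMSO_siNT −2.30 ± 0.17, adjusted p = 1.8e-09). The senescent groups met at 2.50 CPM, with 32 reads in 4OHT_siNT 4-3VM and 31 in the unlabelled library. RFC2 had the smallest change among the 35 genes and did not pass the test. It read 17.2, 20.2 and 23.2 CPM in growing, 15, 17.6 and 18.6 in senescent and 18.1, 19.8 and 22.5 in knockdown cells, so all 3 groups overlapped (−0.23 ± 0.10, adjusted p = 0.060). RFC3, RFC4 and RFC5, which share a loader with RFC2, were at −2.30 to −1.35, and RFC1, the large subunit of that loader, fell too (−1.22 ± 0.12, adjusted p = 5.9e-08). PCNA, the most abundant member, kept 53.1% of the growing level, but its growing mean rested on DMSO_siNT 4-2V at 261 CPM against 97.1 to 127 CPM in the other 5 libraries. Its log2 fold change was −0.91 ± 0.21 with that library and −0.62 without it, and it was called both times.

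Polymerase and primase genes showed the widest spread of any role. Of 7 genes, 6 fell, with a median of −1.10. POLE2, the second subunit of polymerase epsilon, read 2.63, 4.38 and 5.99 CPM in DMSO_siNT, 0, 0.0682 and 0.297 in 4OHT_siNT and 0.0808, 0.195 and 0.717 in 4OHT_siSMARCA4. The 4OHT_siNT libraries held 0 to 4 reads each, so that the 2.72% left is a rough value (−5.11 ± 0.51, adjusted p = 9.1e-08). POLD1, the catalytic subunit of polymerase delta, did not pass the test. It read 10.6, 23.3 and 26.8 CPM in growing, 12.7, 17.1 and 20.1 in senescent and 16.6, 18.7 and 20.2 in knockdown cells (−0.38 ± 0.16, adjusted p = 0.056). The lowest growing value, 10.6 CPM, was DMSO_siNT 4-2V, and the other 5 growing libraries were all above the 4OHT_siNT libraries. Without it POLD1 was called lower (−0.51, adjusted p = 0.00023). Subunits of the same enzyme moved apart: POLE, the catalytic subunit of polymerase epsilon, kept 61.3% against 2.72% for POLE2, and of the primase pair PRIM1 kept 10.4% and PRIM2 46.8%. POLA1 and POLA2, of polymerase alpha, were at −1.38 and −0.65.

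FEN1 trims the flaps of Okazaki fragments and LIG1 seals the nick. FEN1 read 30.9, 35.1 and 77.1 CPM in DMSO_siNT, 14.7, 15.3 and 17.1 in 4OHT_siNT and 9.81, 17.5 and 19.7 in 4OHT_siSMARCA4. The growing libraries were all higher (−1.39 ± 0.21, adjusted p = 1.3e-05), and 77.1 CPM was DMSO_siNT 4-2V. LIG1 had the weakest call of the 33. It read 6.81, 21.8 and 26.5 CPM in growing, 12.3, 13.6 and 16.3 in senescent and 7.50, 10.01 and 12.9 in knockdown cells (−0.56 ± 0.22, adjusted p = 0.038). The low value of 6.81 was again DMSO_siNT 4-2V, and the other 5 growing libraries lay above the senescent ones. Leaving out any of 10 other libraries took LIG1 past the threshold, with adjusted p up to 0.096.

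All 4 nucleotide supply genes fell, by a median of −2.82. TK1, the thymidine kinase of the salvage pathway, read 28.6, 44.4 and 56.2 CPM in DMSO_siNT, 0.583, 1.28 and 2.11 in 4OHT_siNT and 1.01, 2.17 and 3.35 in 4OHT_siSMARCA4. That is a 34.7-fold fall, close to that of POLE2, and the growing libraries were far above the others (−5.12 ± 0.32, adjusted p = 1.2e-10). RRM1, the large subunit of ribonucleotide reductase, read 85.0, 93.0 and 146 CPM in growing, 30.02, 31.7 and 35.8 in senescent and 26.6, 30.3 and 34.7 in knockdown cells. It had the smallest fall of the role (−1.64 ± 0.12, adjusted p = 1.4e-09). RRM2, the small subunit of the same enzyme, read 27.7, 71.6 and 96.6 CPM in DMSO_siNT and 3.99, 4.43 and 5.78 in 4OHT_siNT, which left 6.73% (−3.89 ± 0.24, adjusted p = 1.0e-10). RRM1 kept 32.1%, so the subunits of ribonucleotide reductase kept unequal shares. TYMS, which makes thymidylate, kept 29.8%, but its exons overlap ENOSF1 and TYMSOS on the other strand, and it is not stated whether counting used strand.

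**Figure D2:**
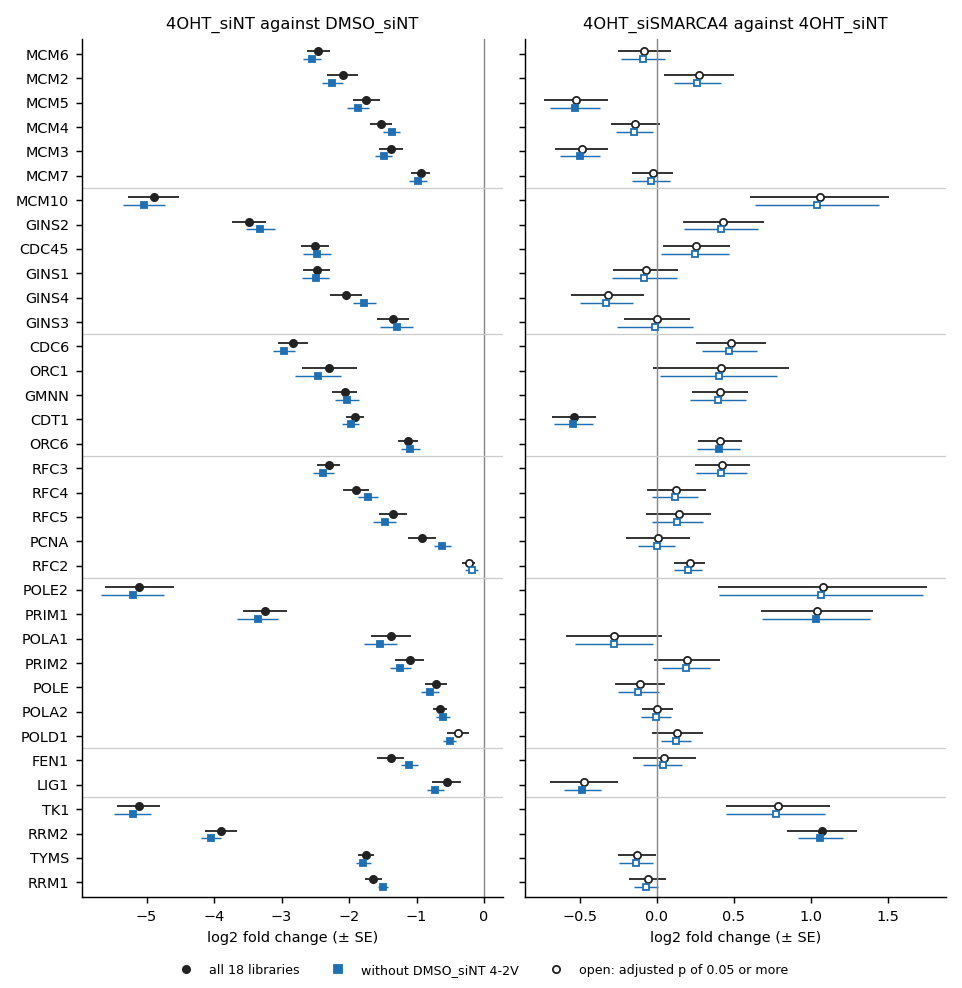
Log2 fold change with its SE for each DNA replication gene in senescence (left) and with SMARCA4 knockdown in senescent cells (right), with all 18 libraries (circles) and without DMSO_siNT 4-2V (squares); open symbols did not pass an adjusted p of 0.05. The left panel lies wholly below 0, from −5.12 to −0.23; the right panel lies on both sides of 0, with RRM2 and CDT1 filled in both fits.

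Knockdown of SMARCA4 in senescent cells left most of these mRNAs at the senescent level. RRM2 rose and CDT1 fell, and 33 genes did not pass the test. Of all genes tested 4.99% were called higher and 5.65% lower, so 1 in 35 each way is no more than the background. The median log2 fold change over the 35 genes was 0.13, against 0.01 over all genes tested, with 21 positive and 14 negative values. The share of positive values over all genes is not given here. An unadjusted p under 0.05 was found for 13 genes. The share of all genes under that p is not given here, so the 13 are not read as an effect on the group. The 4OHT_siNT libraries serve both this comparison and the one before it, so the signs of the 2 are not independent. With knockdown, markers of the cell state moved too: 6 of the 10 fibroblast markers were called lower, and the markers' sum was 15213 to 20123 CPM in 4OHT_siNT and 8827 to 12872 in 4OHT_siSMARCA4. The cell cycle inhibitor genes CDKN1A, CDKN2A and CDKN2B were lower as well (log2 fold changes −0.39, −0.64 and −0.63, adjusted p = 0.019, 0.027 and 0.00045, edgeR). The part of these in the replication results was not tested.

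RRM2 (chr2:10120698-10211725, plus strand, hg38, GENCODE 44) rose 2.10-fold with knockdown. Its CPM were 3.99, 4.43 and 5.78 in 4OHT_siNT and 7.63, 9.25 and 12.7 in 4OHT_siSMARCA4. All 6 knockdown libraries were above all 6 control libraries (1.07 ± 0.23, adjusted p = 0.0050, edgeR). The gene remained far below growing cells, with 14.2% of their level in 4OHT_siSMARCA4 against 6.73% in 4OHT_siNT. RRM2 has 3 annotated pseudogene copies, whose reads could be assigned to it or taken from it. CDT1 (chr16:88803789-88809258, plus strand) went down further, to 68.9% of the 4OHT_siNT level. It read 4.23, 4.66 and 5.19 CPM in 4OHT_siNT and 2.42, 3.00 and 4.25 in 4OHT_siSMARCA4. The groups overlapped by 1 library, 4OHT_siSMARCA4 2-3V at 4.25 CPM (−0.54 ± 0.14, adjusted p = 0.020). CDT1 was not called without the unlabelled library (adjusted p = 0.051) or without 4OHT_siSMARCA4 4-2VM (adjusted p = 0.053).

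Leaving out DMSO_siNT 4-2V, a growing library that enters this comparison only through the shared estimate of spread and the filter, changed the calls. ORC6 (0.40), PRIM1 (1.04) and RRM2 (1.06) were then called higher, and CDT1 (−0.54), MCM5 (−0.53), MCM3 (−0.50) and LIG1 (−0.48) lower, all as log2 fold changes. Over all genes 11.7% were called higher and 12.9% lower in that fit, so 3 and 4 of 35 stayed at or under the background. The estimates themselves barely moved, the 5 added genes having been at 0.41, 1.04, −0.52, −0.49 and −0.47 with all libraries. By role, with all libraries, the clamp and loader genes were all positive (median 0.14) and 5 of the 6 MCM2-7 genes negative (median −0.11). Neither role had a call in that fit. Some signs rest on values near 0, such as PCNA at 0.009 (−0.0003 without DMSO_siNT 4-2V) and MCM7 at −0.027. RFC3 was at 0.43 ± 0.18 and was not called (adjusted p = 0.14). Its lowest knockdown library barely cleared the highest control library, at 2.504 against 2.500 CPM (31 and 32 reads).

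**Figure D3:**
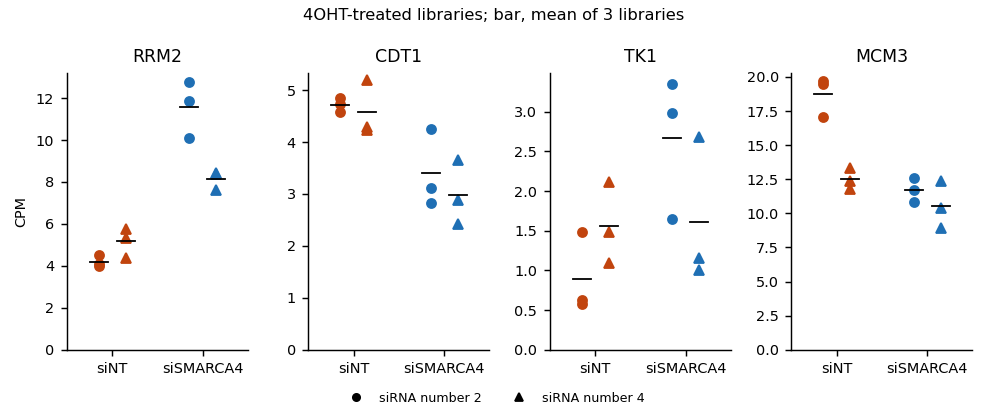
CPM of RRM2, CDT1, TK1 and MCM3 in each 4OHT-treated library, by siRNA number (circles, number 2; triangles, number 4), with the mean of 3 libraries as a bar. RRM2 libraries with knockdown (7.63 to 12.7 CPM) lie above all controls (3.99 to 5.78 CPM). MCM3 reads higher in the siNT 2 than in the siNT 4 libraries, a difference that did not pass the test (adjusted p = 0.26, edgeR).

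Each siRNA was also compared with the control siRNA of the same number, in contrasts that share no library. With siRNA 2, RRM2 (1.47 ± 0.29, adjusted p = 0.0055) and TK1 (1.57 ± 0.45, adjusted p = 0.042) rose and MCM3 fell (−0.67 ± 0.19, adjusted p = 0.043, edgeR), which is 3 of 35 where 7.67% of all genes were called. With siRNA 4 none of the 35 passed edgeR or DESeq2, where edgeR called 2.71% of all genes. An unadjusted p under 0.05 was found for 5 of the 35, and the share of all genes under that p is not given here. RRM2 read 4.08, 4.5 and 3.99 CPM with siNT 2 and 11.9, 10.1 and 12.7 with siSMARCA4_2. It read 5.34, 4.37 and 5.78 CPM with siNT 4 and 7.63, 8.41 and 8.38 with siSMARCA4_4, so that knockdown was higher under either siRNA (0.64 ± 0.29 with siRNA 4, adjusted p = 0.26). Without DMSO_siNT 4-2V, RRM2 was called with both siRNAs (adjusted p = 1.4e-05 and 0.013). In that fit siRNA 2 called 5 members (RRM2, TK1, CDC6 and GMNN higher, MCM3 lower) where 20.1% of all genes were called, and siRNA 4 called 4 (RRM2 higher, MCM5, CDT1 and LIG1 lower) where 16.2% were.

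The difference between the siRNAs was tested itself. It was called for none of the 35 by edgeR or DESeq2, and for 0.0146% of all genes by edgeR. Of the 35, 4 had an unadjusted p under 0.05, and the share of all genes under that p is not given here. TK1 read 2.99, 1.65 and 3.35 CPM with siSMARCA4_2 against 0.583, 0.623 and 1.48 with siNT 2, while siSMARCA4_4 (1.01, 1.15 and 2.68 CPM) and siNT 4 (1.48, 1.09 and 2.11 CPM) overlapped (difference of log2 fold changes 1.58 ± 0.63, adjusted p = 0.57). These are 8 to 27 reads per library in 4OHT_siNT. MCM3 read 17.0, 19.5 and 19.7 CPM with siNT 2 and 12.4, 13.3 and 11.8 with siNT 4, so its fall with siRNA 2 was set against the higher of 2 controls (siNT 2 against siNT 4 0.58, adjusted p = 0.26). The siSMARCA4 libraries read 10.9 to 12.6 CPM with number 2 and 8.91 to 12.3 CPM with number 4. MCM7 had the lowest p of the 35 for the difference, at 0.32 with siRNA 2 and −0.36 with siRNA 4 (adjusted p = 0.38). Over the 35 genes the siRNAs gave the same sign for 24, of which 15 were positive and 9 negative (Pearson r = 0.51 across genes, which are not independent). The agreement over all genes was not counted, so these values describe the 35 genes only.

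**Figure D4:**
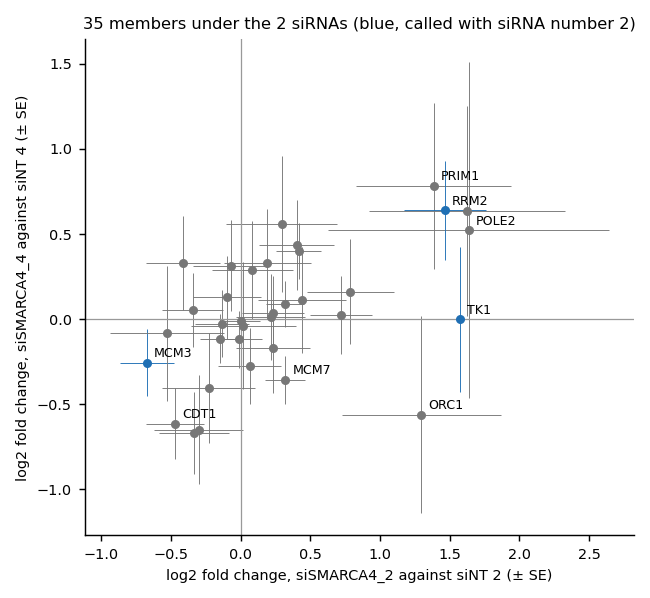
Log2 fold change (± SE) of the 35 DNA replication genes with siRNA 2 (x axis) and siRNA 4 (y axis), each against the control siRNA of the same number; blue points were called with siRNA 2. RRM2 is up on both axes (1.47 and 0.64), TK1 on the x axis only (1.57 and −0.00).

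All 4OHT_siNT libraries came from VM sets, while DMSO_siNT and 4OHT_siSMARCA4 held V and VM sets. The letters could therefore move with the senescence contrast and with the knockdown. For senescence in VM sets only, 34 of the 35 genes were called lower, where 27.9% of all genes were. Within 4OHT_siSMARCA4, V against VM called none of the 35 genes (2 with an unadjusted p under 0.05, edgeR) and 0.101% of all genes. Within DMSO_siNT it called none (4 with an unadjusted p under 0.05) and 0.324% of all genes. The shares of all genes under that unadjusted p are not given here for either group. GINS4 was among the 4, higher in the V sets of DMSO_siNT (0.97 ± 0.22, adjusted p = 0.065, edgeR). The V side there includes DMSO_siNT 4-2V, which widens the spread, and the count without that library is not given here. Restricted to VM sets in the same fit, the knockdown side held only 2 libraries, 4OHT_siSMARCA4 2-3VM and 4-2VM, 1 per siRNA. Set against the 6 control libraries, they gave RRM2 at 1.17 (adjusted p = 0.034), TK1 at 1.30 (adjusted p = 0.043) and CDT1 at −0.75 (adjusted p = 0.040, edgeR). These were 3 of 35 where 8.11% of all genes were called. TK1 was also 1 of the 2 genes with an unadjusted p under 0.05 for V against VM within 4OHT_siSMARCA4 (−1.27 ± 0.43, adjusted p = 0.38): the labelled VM libraries read 2.68 and 3.35 CPM and the V libraries 1.01 to 1.65 CPM. The other was MCM4.

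Set against growing cells, SMARCA4-depleted senescent cells had the same 33 genes lower, RFC2 and POLD1 being the exceptions again, where 27.3% of all genes were called lower. The median log2 fold change was −1.82, and the level left ran from 5.02% (TK1) to 98.9% (RFC2), with a median of 28.5%. RFC2 read 20.2 ± 2.5 CPM in growing and 19.98 ± 1.8 in knockdown cells (SD, n = 6; −0.02, adjusted p = 0.91). The share left was higher than in 4OHT_siNT for 22 of the 35 genes. Some differed by little, such as PCNA (53.4% against 53.1%) and POLA2 (63.7% against 63.5%). The matching count over all genes is not given here, so the 22 are not read as an effect on the group. This comparison shares its libraries with both others. Exons of 4 of the 35 genes (POLA2, POLD1, PRIM1 and FEN1) overlap another gene on the same strand, and those of 10 a gene on the other strand, so their counts are less certain.

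Other genes of the replication pathway, a list of 46 such as the remaining ORC, polymerase and RPA subunits, were mostly lower too. Of the 46, 29 were called lower and 3 higher in senescence, where 28.9% of all genes tested were called lower and 23.9% higher, and the median was −0.71. The largest falls were CLSPN, an adaptor of the replication checkpoint (−4.95 ± 0.44, adjusted p = 1.9e-08, edgeR), the histone chaperone ASF1B (−4.74 ± 0.30, adjusted p = 1.5e-10) and CHAF1B of the chromatin assembly complex (−3.28 ± 0.23, adjusted p = 5.4e-10). CLSPN read 66.5 CPM in DMSO_siNT 4-2V against 11.6 to 21.2 in the other growing libraries, and without that library its fall (−4.39) was smaller than that of ASF1B (−4.75). The 3 that rose were RRM2B, the p53-induced form of the ribonucleotide reductase small subunit (0.69 ± 0.14, adjusted p = 0.00051), RPA2 of the single-strand binding complex (0.54 ± 0.14, adjusted p = 0.0029) and SSRP1 of the FACT histone chaperone (0.45 ± 0.09, adjusted p = 0.00056). RRM2B went from 85.8, 107 and 123 CPM in DMSO_siNT to 127, 167 and 209 in 4OHT_siNT, so RRM2B was higher in all senescent libraries while RRM2 was lower in all of them. With knockdown DCK, the deoxycytidine kinase of nucleotide salvage, rose (0.74 ± 0.16, adjusted p = 0.0055), from 6.28, 10.7 and 13.2 to 13.3, 16.9 and 19 CPM. RPA1 fell (−0.34 ± 0.08, adjusted p = 0.0092), from 70.7, 74.6 and 76.4 to 56.2, 58.0 and 62.3 CPM, and neither gene's groups overlapped.

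Among 14 S-phase regulators (E2F factors, RB family and S-phase cyclins and kinases), 12 passed the filter, and E2F2 and E2F8 did not. In senescence 5 were called lower and 3 higher, and 3 of 12 higher is near the 23.9% of all genes. CCNA2, the S-phase cyclin A, had the largest fall (−4.44 ± 0.23, adjusted p = 1.2e-11), followed by CCNE2 (−4.10 ± 0.32, adjusted p = 2.5e-09) and RBL1 (−2.54 ± 0.21, adjusted p = 6.9e-09). E2F7, a repressor E2F, rose from 7.29, 24 and 32.5 CPM to 106, 133 and 149 CPM (2.55 ± 0.26, adjusted p = 1.2e-07). CCNE1 (0.54 ± 0.13, adjusted p = 0.0019) and E2F4 (0.39 ± 0.11, adjusted p = 0.0076) rose too, so the cyclin E genes went in opposite directions. With knockdown CCNE2 (1.35 ± 0.35, adjusted p = 0.018) and CCNA2 (0.80 ± 0.24, adjusted p = 0.042) rose. CDK2, the kinase these cyclins bind, fell (−0.71 ± 0.16, adjusted p = 0.0073), from 40.9, 48.0 and 55.3 to 27.1, 29.0 and 35.8 CPM with no overlap. CCNA2 read 1.18, 1.24 and 2.07 CPM in 4OHT_siNT and 1.29, 2.67 and 3.47 in 4OHT_siSMARCA4, against 26.3 to 37.2 CPM in growing cells.

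The growing group was not uniform for these genes. DMSO_siNT 4-2V was the lowest growing library for 21 of the 35 genes and the highest for 9. How often it was lowest or highest over all genes was not counted, so this is not read as particular to replication genes. It was low for ORC1 (1.08 CPM against 4.31 ± 0.80 (SD) in the other 5), LIG1 (6.81 against 23.0 ± 3.2) and RRM2 (27.7 against 77.8 ± 13), and high for PCNA (261 against 111 ± 11), FEN1 (77.1 against 34.1 ± 3.6) and GINS4 (56.7 against 25.4 ± 7.3). The sum over the 35 genes, 1152 CPM, was within the range of the others, 912 to 1212 CPM.

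**Figure D5:**
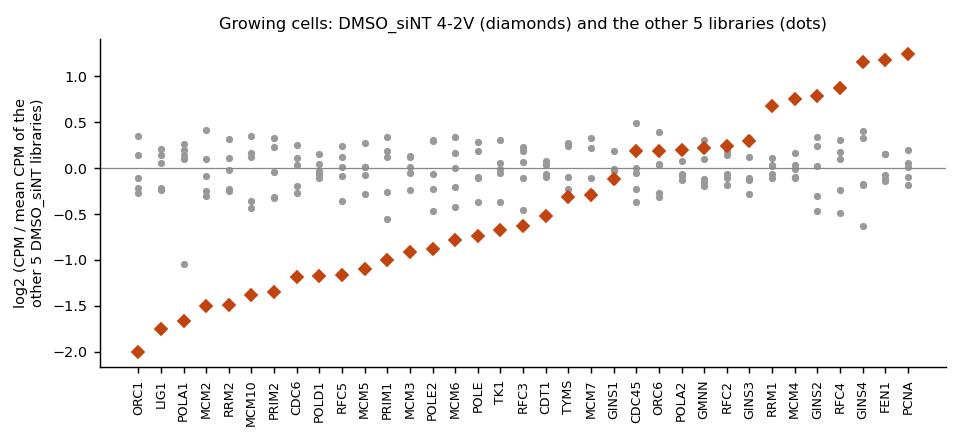
Log2 ratio of each growing library to the mean CPM of the 5 growing libraries other than DMSO_siNT 4-2V, for each DNA replication gene; diamonds, DMSO_siNT 4-2V, and dots, the other 5. The diamonds run from far below the dots (ORC1, LIG1) to far above (FEN1, PCNA).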

How the data were processed

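RNA of 18 libraries was sequenced as polyadenylated, directional, single-end 72 bp libraries. The authors aligned reads to hg38 with STAR 2.7.8a (per the labels), and deposited raw counts per gene in 36 columns, 2 lanes per library, all used here. The program that counted, its annotation and its use of strand are not given in the sources used here. Labels list 29 samples; 17 had columns that matched a title, 1 further library was placed by the group in its column name. The remaining samples were not analysed here. Lanes were summed, giving 9657309 to 18039313 counts per library.

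Genes were filtered with filterByExpr (minimum count 10), scaled by TMM, and tested across all 13136 genes with edgeR 4.0.16 (quasi-likelihood, R 4.3.3) in a fit of the 3 groups with no other covariate. Separate fits by group and siRNA number (13659 genes) and by group and set letter (13887 genes) gave those contrasts. P-values were adjusted by Benjamini-Hochberg over all genes tested, with a threshold of 0.05. CPM were computed with TMM-scaled library sizes, and CPM per kb with the exon length of the MANE Select transcript (GENCODE 44). No library duplicated another.

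The members and lists were chosen with earlier results of these data known. Members given in full were those of largest and smallest change in senescence per role and those called with knockdown; from the other lists, genes that rose in senescence, the 3 largest falls and genes called with knockdown. ORC6, PRIM1, MCM3, MCM5, LIG1, TK1, MCM7 and ORC1 were also named after their values were seen. Alternatives were DESeq2 1.42.0, its size factors, no filter, a replicate block, subsets of sets, groups and siRNAs, a 2-fold limit, and each library left out. Fits with the unlabelled library added to the VM sets, or left out of the siRNA contrasts, were chosen after seeing the data. Scripts were tested on simulated data.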

Additional observations from a re-analysis of the deposited data

Results flagged for a closer look

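For 12 of 105 sets of 6 libraries (35 genes in 3 groups), 1 library lay far from the others. The distance is the gap to the nearest library over the range of the group, on log2 CPM, and was past the 95% critical value of Dixon's test for 6 values. Chance passes it in about 1 in 20 sets. In 11 of the 12 the library was DMSO_siNT 4-2V. The share of all genes flagged in this way was not counted, so the flags are not read as particular to the 35 genes.

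DMSO_siNT 4-2V was low for POLD1 (0.803 of the range, 10.6 CPM against 22.4 in the nearest growing library), LIG1 (0.771, 6.81 against 19.4 CPM), ORC1 (0.729, 1.08 against 3.58 CPM) and CDT1 (0.717, 12.8 against 17.3 CPM). It was also low for RRM2 (0.689, 27.7 against 65.6 CPM), MCM3 (0.647, 23.4 against 37.4 CPM) and CDC6 (0.634, 7.53 against 14.2 CPM). It was high for FEN1 (0.773, 77.1 against 38 CPM), PCNA (0.733, 261 against 127 CPM), RRM1 (0.724, 146 against 98.7 CPM) and MCM4 (0.686, 124 against 82.3 CPM). The remaining set was CDC6 in 4OHT_siSMARCA4, where library 4-2VM was low (0.649, 1.90 against 2.86 CPM).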

How the results depend on the processing

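The count of 33 genes lower in senescence stayed between 28 and 34 under every alternative run, and between 32 and 34 with any library left out. The median of −1.75 was −1.59 in VM sets only and −1.60 with the unlabelled library added to them, and −1.82 to −1.67 with any library left out.

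The knockdown calls were less stable. The 1 gene higher became 2 in VM sets only, 6 with the unlabelled library added to them, 2 with only the 2 groups compared, 5 with siRNA 2 only and 0 with siRNA 4 only, and 1 to 3 with any library left out. It was 3 without DMSO_siNT 4-2V, and 2 without 4OHT_siNT 4-3VM or 4OHT_siSMARCA4 2-3V. The 1 gene lower became 2 with DESeq2, 0 with no filter, 2 in VM sets only, 3 with the unlabelled library added, 4 with only the 2 groups compared, 0 with siRNA 4 only and 0 over 2-fold, and 0 to 4 with any library left out. It was 4 without DMSO_siNT 4-2V. It was 0 without the unlabelled library or 4OHT_siSMARCA4 4-2VM. The share of all genes called moved as well. Higher calls were 8.76% of all genes in VM sets only, 13.6% with the unlabelled library added, 13.3% with only the 2 groups compared, 11.8% with siRNA 2 only and 0.0151% with siRNA 4 only. Lower calls were 12.2%, 16.7%, 13.6%, 13.9% and 0.0151% in the same order. The median of 0.13 was 0.027 with only the 2 groups compared and 0.018 with siRNA 4 only, and 0.035 to 0.13 with any library left out. The lowest was without 4OHT_siSMARCA4 2-3VM. RRM2 kept its direction in every alternative (0.63 to 1.46) and lost its call with siRNA 4 only (adjusted p = 0.57, edgeR) and with the replicate block. CDT1 (−0.76 to −0.48) lost its call in 7 of 28.

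Against growing cells the 33 genes lower with knockdown were 34 without DMSO_siNT 4-2V. The 3 genes called with siRNA 2 were 5 without DMSO_siNT 4-2V and 1 without the unlabelled library, and the 0 with siRNA 4 were 4 without DMSO_siNT 4-2V. Over 643 values of named genes under alternatives, 596 kept direction and side of the threshold, 25 lost the call, 22 gained one and 0 reversed. The causes were not tested.

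With the set name as a replicate block, senescence called 31 genes lower (median −1.65) and knockdown called 0 higher and 0 lower (RRM2 adjusted p = 0.14, edgeR). Libraries of the same set name in 2 groups did not deviate together throughout, with correlations of −0.23 to 0.27, so the names were not taken to pair them. Depth limits POLE2, MCM10, PRIM1 and ORC1 in senescent cells most, at 0 to 16 reads per 4OHT_siNT library.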
